A study of Mus musculus with 4 samples.

Results

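The 9 initiator methionine tRNA genes of the mouse were described in small RNA from sperm of the cauda epididymis, where mature sperm are stored. They are the entries of the tRNA class whose name contains tRNA-iMet-CAT-, a rule that uses no measured value. They make up 9 of 438 tRNA genes and of 2150 entries in the 5 small RNA classes. The study compared adult C57BL/6 mice of an extra cross to wildtype with adult C57BL/6 mice of the original cross, each cross being represented by 2 mice and each mouse by 1 library. Its title sets sperm susceptible to epigenetic silencing of a LoxP site against sperm that are not, LoxP being the recognition sequence of Cre recombinase. The labels name neither the alleles carried nor which cross was susceptible, and what distinguishes the crosses beyond the breeding is not given in the sources used here.

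Eukaryotic cells use separate tRNAs for the methionine codon. The initiator tRNA is brought by the factor eIF2 to the small ribosomal subunit and pairs with the start codon, and the elongator tRNA serves methionine codons inside the reading frame. Mature sperm translate little, and their small RNA is rich in tRNA fragments, many from the 5′ part of the molecule, some of which are taken up from the epididymis. The deposited values are totals per gene, so full-length tRNA, 5′ fragments and 3′ fragments cannot be told apart in them.

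The members carried 3 distinct values in each library, and 7 genes, tRNA-iMet-CAT-1-1 to tRNA-iMet-CAT-1-7, shared 1 of them. The values are RPM, the unit in which the authors put the reads of each library on a common scale. The 7 copies had equal values, as an equal division of their reads would give. The members are therefore treated below as 3 distinct values and not as 9. These 3 need not be independent, since tRNA-iMet-CAT-3-1 stayed at 97.2% to 97.8% of the value of tRNA-iMet-CAT-1-1. How far these 2 values rest on the same reads was not tested. RefSeq lists 16 methionine CAT tRNA genes in GRCm38.p6, 11 of them on chromosome 13, with lengths of 72 or 73 bases. It does not pair them with the names used here, so no coordinates are assigned to the members. With lengths this close, differences in RPM between members are hardly affected by gene length.

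In RPM as deposited, the initiator tRNA was somewhat more abundant in the extra cross than in the original cross of the same replicate number (in replicate 1 the order turned when libraries were scaled to the sum of the 5 small RNA classes), and this difference was far smaller than that between mice of 1 cross. Each of the 7 copies of tRNA-iMet-CAT-1 had 815 and 2198 RPM in extra-cross replicates 1 and 2, against 704 and 2082 RPM in original-cross replicates 1 and 2. The groups overlapped, since both replicate 2 libraries lay above both replicate 1 libraries. The gene tRNA-iMet-CAT-3-1 had 797 and 2136 RPM in the extra cross and 685 and 2036 RPM in the original cross, the same pattern at a slightly lower level. The gene tRNA-iMet-CAT-2-1 was far less abundant, with 42.3 and 83.8 RPM in the extra cross and 40.9 and 68.6 RPM in the original cross. Its groups overlapped as well.

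**Figure D1:**
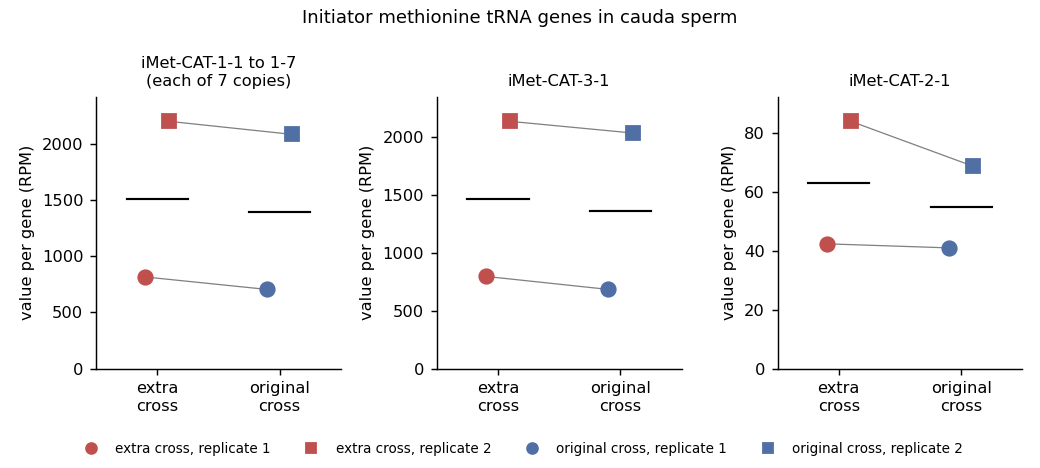
Value per gene (RPM, y axis) of the 3 distinct initiator tRNA values in the extra cross (red, left) and the original cross (blue, right). Circles are replicate 1 and squares replicate 2, grey lines join the libraries with the same replicate number, and black bars are means. In every panel the squares lie above the circles in both crosses, and in RPM as deposited each joined pair is higher in the extra cross, which turned in replicate 1 for the family when scaled to the 5 classes.

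Summed over the 9 genes, the initiator tRNA reached 6545 and 17603 RPM in the extra cross, with a mean of 12074 ± 7819 RPM (SD, n = 2). In the original cross it reached 5652 and 16679.9 RPM, with a mean of 11166 ± 7798 RPM (SD, n = 2). Within the replicate numbers, the extra cross had 1.16-fold and 1.06-fold the value of the original cross in replicates 1 and 2. Between the mice of 1 cross, replicate 2 had 2.69-fold the value of replicate 1 in the extra cross and 2.95-fold in the original cross. The difference of the mean log2 values was 0.14, and a two-sided exact permutation test gave p = 0.667 (0.667 after Benjamini-Hochberg adjustment over 3 such tests). With 2 libraries against 2 this test cannot give a p below 0.333.

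The test across all features gave no call for any member. Limma on log2(RPM + 1) gave tRNA-iMet-CAT-1-1 and its copies a log2 fold change of 0.14 ± 0.83 (SE), tRNA-iMet-CAT-3-1 one of 0.14 ± 0.83 and tRNA-iMet-CAT-2-1 one of 0.17 ± 0.55, each with an adjusted p of 0.995. All 9 members passed the minimum mean of 10 RPM over the 4 libraries. Limma had no term for the replicate number here, and 0 of the 760 features over that minimum (0%) had an adjusted p under 0.05. Before adjustment, 112 of these features lay under 0.05. Once the replicate number was added to the fit, 171 of the 760 features passed, but 0 of the 9 members. The replicate numbers are not known to pair the mice, so the fit without them is the one reported here. All 9 members (3 distinct values) were higher in the extra cross in both replicates, which was also true of 19.9% of all features tested and 17.6% of the 306 tRNA genes tested.

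The size of the difference depended on how the libraries were scaled. For tRNA-iMet-CAT-1-1 the log2 fold change was 0.61 with median-ratio factors, 0.0087 with libraries scaled to the sum of the 5 small RNA classes and 0.25 when scaled to the sum of the tRNA class. The median over all 760 features moved along, at -0.12 in the values as deposited, 0.33 with median-ratio factors, -0.25 with the sum of the 5 classes and -0.024 with the sum of the tRNA class. Relative to that median, tRNA-iMet-CAT-1-1 stood 0.26 higher on the log2 scale in the values as deposited. A factor per library shifts all features alike, so this distance is nearly the same under any of these scalings by construction. Of the 5 small RNA classes together, the initiator tRNA held 0.978% and 3.53% in the extra cross and 1.02% and 3.35% in the original cross, so that on this scale the extra cross was lower in replicate 1 and higher in replicate 2.

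As a share of all reads on tRNA genes, the initiator tRNA was higher in the extra cross in both replicates. It held 3.78% and 6.05% of the tRNA class in the extra cross, with a mean of 4.91 ± 1.60% (SD, n = 2). In the original cross it held 2.98% and 5.43%, with a mean of 4.21 ± 1.73% (SD, n = 2). The groups overlapped, and the two-sided exact permutation test gave p = 0.667 (0.667 after adjustment). A higher share in both replicates was found for 15 of the 47 tRNA families with a mean of at least 10 RPM, or 31.9%.

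The initiator family ranked seventh of 54 tRNA families by the mean of its summed values, and seventh also after division by the mean gene length in RefSeq, which was found for 48 families. Within single libraries it ranked 8 and 5 in extra-cross replicates 1 and 2 and 10 and 5 in original-cross replicates 1 and 2. Its neighbours in the order were tRNA-Gly-GCC, with 11040 and 11431 RPM in the extra cross and 10862 and 13368 RPM in the original cross, and tRNA-Gln-CTG, with 5844 and 12948 RPM in the extra cross and 8899 and 13592 RPM in the original cross. The ranges of both neighbours lay inside that of the initiator. Within single libraries, the initiator was below tRNA-Gly-GCC in replicate 1 of both crosses and above it in replicate 2 of both. It was above tRNA-Gln-CTG in every library except original-cross replicate 1. Whether the levels of these families differ was not tested. Above them stood tRNA-Glu-CTC, the most abundant family, with 32198 and 100810 RPM in the extra cross and 38466 and 107037 RPM in the original cross.

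**Figure D2:**
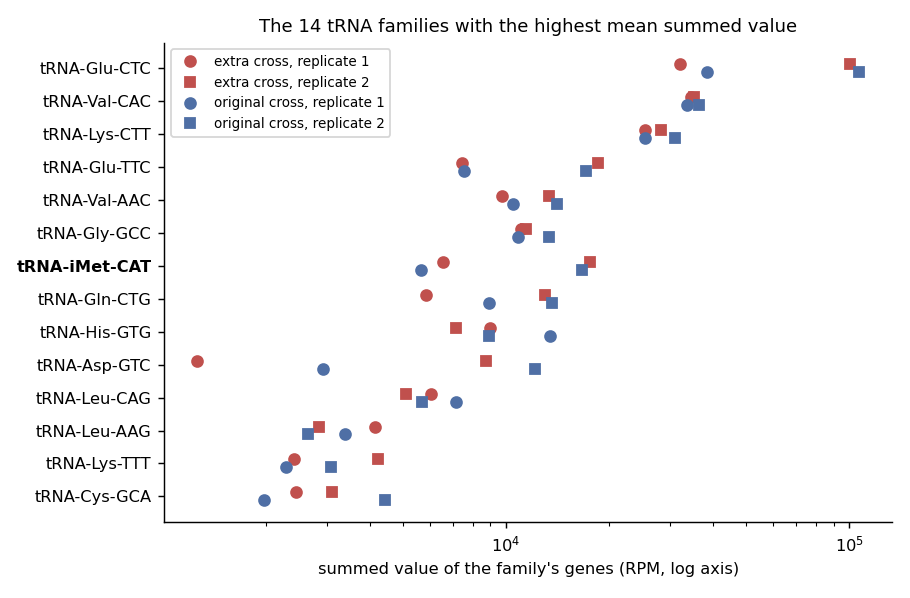
Summed value of the genes of a family (RPM, log axis) for the 14 tRNA families with the highest mean, from top to bottom in that order. Red points are extra-cross and blue points original-cross libraries, with circles for replicate 1 and squares for replicate 2. The initiator family (bold) spans 5652 to 17603 RPM, a wider range than that of its neighbour tRNA-Gly-GCC.

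The spread between replicates was not shared by all tRNA families. Of the 47 families over the minimum, 31 had a higher value in replicate 2 than in replicate 1 of both crosses. The initiator was among them, as was tRNA-Glu-CTC, with 3.13-fold more in replicate 2 of the extra cross and 2.78-fold more in that of the original cross. In RPM the families tRNA-Val-CAC and tRNA-Lys-CTT were nearly level between replicates, at 1.02-fold and 1.11-fold in the extra cross and 1.08-fold and 1.22-fold in the original cross. The family tRNA-His-GTG went the other way, at 0.794-fold in the extra cross and 0.663-fold in the original cross. The tRNA class as a whole had 1.68-fold more in replicate 2 of the extra cross and 1.62-fold more in that of the original cross. As a share of the class, the initiator in replicate 2 was at 1.60-fold of replicate 1 in the extra cross and 1.82-fold in the original cross, and tRNA-Val-CAC was at 0.604-fold and 0.670-fold. In bulk RNA, fewer cells of a type and less RNA per cell cannot be told apart.

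In RPM as deposited, 6 of the 47 families over the minimum (12.8%) had a higher summed value in the extra cross in both replicates, and 20 had a lower one in both. The 6 were the initiator, the elongator tRNA-Met-CAT, tRNA-Leu-AAG, tRNA-Lys-TTT, tRNA-Ala-AGC and tRNA-Gly-ACC. On the log2(RPM + 1) scale the initiator sum differed by 0.21 in replicate 1 and 0.078 in replicate 2. Of the genes in 9 Glu, Gly, Val, Lys and His families known from sperm tRNA fragments, 85 were tested. In the fit without a term for the replicate number, 0 of them passed limma. Their median log2 fold change was -0.075, and 27 had a positive one. A positive log2 fold change was found for 115 of all 306 tRNA genes tested, with a median of -0.10, and for 316 of all 760 features, with a median of -0.12.

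**Figure D3:**
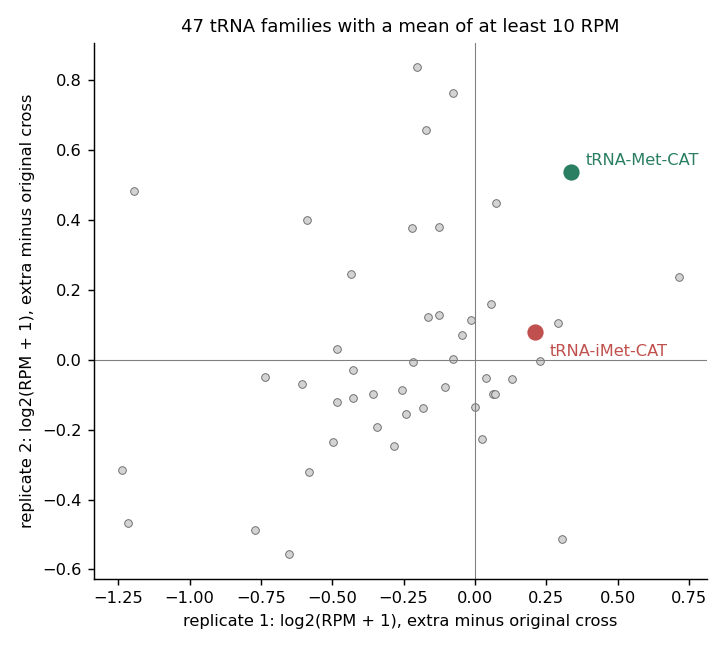
Difference between the extra and the original cross in the summed value of each of 47 tRNA families (log2(RPM + 1)), for replicate 1 (x axis) and replicate 2 (y axis). The initiator (red) and the elongator methionine family (green) lie in the upper right, where 6 families are higher in the extra cross in both replicates in RPM as deposited (the initiator turned in replicate 1 when scaled to the 5 classes).

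The elongator tRNA-Met-CAT, which shares the anticodon with the initiator, was far less abundant in every library. Its 9 genes had summed values of 120 and 721 RPM in the extra cross, against 94.8 and 496 RPM in the original cross. The initiator sum was thus 54.5 and 24.4 times the elongator sum in the extra cross, and 59.6 and 33.6 times in the original cross. The ratio averaged 39.5 ± 21.3 in the extra cross and 46.6 ± 18.4 in the original cross (SD, n = 2 each), so that it was lower in the extra cross in both replicates. The difference of the mean log2 ratio was -0.29, and the two-sided exact permutation test gave p = 0.667 (0.667 after adjustment). Of the elongator genes 5 passed the minimum, and their log2 fold changes lay between 0.36 and 0.66, with limma adjusted p of 0.995 for each. The highest mean over the 4 libraries was that of tRNA-Met-CAT-1-1 and its copy, with 25.5 and 159 RPM in the extra cross and 22.3 and 106 RPM in the original cross. In original-cross replicate 2 tRNA-Met-CAT-2-1 was higher, at 111 RPM.

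**Figure D4:**
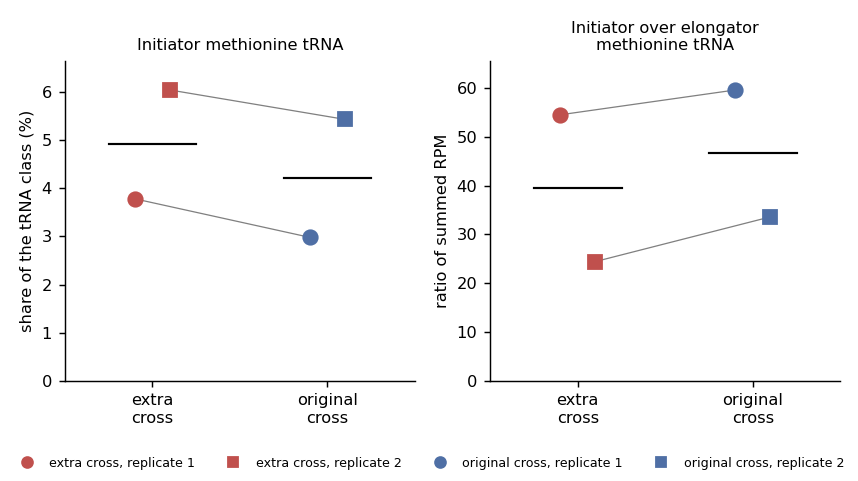
Share of the tRNA class held by the initiator genes (left, %) and ratio of the initiator sum to the elongator sum (right) in the extra cross (red) and the original cross (blue). Circles are replicate 1, squares replicate 2, grey lines join the same replicate number and black bars are means. The share is higher and the ratio lower in the extra cross in both replicates.

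The value of tRNA-iMet-CAT-3-1 followed that of tRNA-iMet-CAT-1-1, and the value of tRNA-iMet-CAT-2-1 varied less between libraries. The gene tRNA-iMet-CAT-3-1 stayed at 97.8% and 97.2% of the value of tRNA-iMet-CAT-1-1 in the extra cross and at 97.3% and 97.8% in the original cross. The gene tRNA-iMet-CAT-2-1 had 5.19% and 3.81% of it in the extra cross and 5.82% and 3.29% in the original cross, with means of 4.50 ± 0.97% and 4.55 ± 1.78% (SD, n = 2 each). A read divided equally among all 9 genes would add the same to each. If reads were divided in this way, at least 94.8% and 96.2% of the value of tRNA-iMet-CAT-1-1 in the extra cross, and 94.2% and 96.7% in the original cross, came from reads that did not match tRNA-iMet-CAT-2-1. Replicate 2 exceeded replicate 1 less for tRNA-iMet-CAT-2-1, at 1.98-fold in the extra cross and 1.68-fold in the original cross, against 2.70-fold and 2.96-fold for tRNA-iMet-CAT-1-1. In original-cross replicate 1 the value of tRNA-iMet-CAT-2-1 stands for about 25.9 reads and is the least precise of the set.

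The family sum behaved as a number of whole reads. Divided by the value of 1 read, it gave 10196 and 74034 reads in extra-cross replicates 1 and 2 and 3577 and 29732 reads in original-cross replicates 1 and 2. Each lay within 0.104 reads of a whole number, which is inside what the rounding of the deposited values allows. The 0.104 was that of extra-cross replicate 2, where rounding allows 0.345 reads. For that library the check therefore says little. The elongator sums gave 187 and 3031 reads in the extra cross and 60 and 885 reads in the original cross, each within 0.0074 reads of a whole number. Original-cross replicate 1 thus rests on the fewest reads for both families.

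By the pattern over the 4 libraries, the nearest features outside the family were other tRNA genes. Likeness was the Euclidean distance between log2(RPM + 1) values centred over the libraries, with tRNA-iMet-CAT-1-1 as the standard and features of equal value counted once. The nearest was tRNA-Cys-GCA-7-1 (distance 0.19), at 8.70 and 29.8 RPM in the extra cross and 8.23 and 28.0 RPM in the original cross. It was followed by tRNA-Glu-TTC-2-1 and its copy (0.28), at 1374 and 3401 RPM in the extra cross and 1358 and 3133 RPM in the original cross, and by the 4 copies of tRNA-Glu-TTC-1 (0.30). Next came tRNA-Thr-AGT-3-1 (0.32), at 5.14 and 20.3 RPM in the extra cross and 4.08 and 15.7 RPM in the original cross, and tRNA-Gly-GCC-5-1 (0.33), at 49.2 and 98.1 RPM in the extra cross and 38.2 and 113 RPM in the original cross. The first and the fourth of these lie at a few RPM in the replicate 1 libraries. Within the family the distance was 0.0079 for tRNA-iMet-CAT-3-1 and 0.67 for tRNA-iMet-CAT-2-1.

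Markers of the cells a sperm preparation can hold also differed between the libraries. The 4 spermatogenic microRNA hairpins were found, mainly mir-34c, and had sums of 1813 and 1205 RPM in the extra cross, against 1923 and 749 RPM in the original cross, with mir-449c at 0 in extra-cross replicate 1. The 5 hairpins of epididymal epithelium had sums of 10408.5 and 5315 RPM in the extra cross, against 4394 and 2055 RPM in the original cross. The 6 of smooth muscle and stroma had sums of 3382 and 5078 RPM in the extra cross, against 8547 and 6264 RPM in the original cross, and the 8 of blood had 11186 and 1136 RPM in the extra cross, against 6519.6 and 1229 RPM in the original cross. No hairpin of the last 3 lists was at 0 in any library. In RPM the spermatogenic, epithelial and blood sums were lower in replicate 2 of each cross, where the initiator tRNA was higher. The whole miRNA class was lower there too, at 0.318-fold of replicate 1 in the extra cross and 0.425-fold in the original cross. As a share of the miRNA class, the epithelial sum was higher in replicate 2, at 2.36% and 3.78% in extra-cross replicates 1 and 2 and 1.59% and 1.75% in original-cross replicates 1 and 2. Its hairpins were mixed, since the share of mir-200b was lower in replicate 2 of the extra cross, and those of mir-141 and mir-200a in that of the original cross. The stromal share was also higher in replicate 2, at 0.766% and 3.62% in the extra cross and 3.10% and 5.34% in the original cross. Among the stromal hairpins mir-145a went the other way, with a lower share in replicate 2 of both crosses. The blood share was lower, at 2.53% and 0.809% in the extra cross and 2.36% and 1.05% in the original cross. Of the blood hairpins, mir-142a, mir-142b and mir-223 went the other way, with a higher share in replicate 2 of both crosses. The spermatogenic share was mixed, at 0.411% and 0.858% in the extra cross and 0.697% and 0.638% in the original cross. Within each replicate number, the epithelial sum was higher and the stromal sum lower in the extra cross, in RPM and as a share of the miRNA class. Single hairpins of replicate 2 went the other way in RPM. There the epithelial mir-200b had 438 RPM in the extra cross against 448 RPM in the original cross. The stromal mir-143 had 2162 RPM in the extra cross against 1867 RPM in the original cross. The part of these cells in the initiator values was not tested.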

How the data were processed

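Sperm small RNA of 4 mice was sequenced, 1 library per mouse, in 1 lane per the labels' protocols, after size selection on a gel and with the TruSeq small RNA kit. Bowtie 1.1.2, CASAVA 1.8.2 and the mm10 build appear in the submitters' processing notes, which assign them no role or order. The authors deposited RPM values as 2 tables, one for each replicate number, and a table holds a column for either cross. The cross was taken from the column and the replicate number from the table's name. How reads were trimmed, which reads make up the RPM total and how multiple matches were handled is not stated in the labels or headers. An entry listed in 1 table only was given 0 in the other. The commonest miRNA value was taken as 1 read (0.642 and 0.238 RPM in extra-cross replicates 1 and 2, 1.58 and 0.561 RPM in original-cross replicates 1 and 2), which places 632860 to 4205690 reads behind the scale. Values of single genes are mostly not whole reads, and no count model was run.

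Limma 3.58.1 in R 4.3.3 was fitted to log2(RPM + 1) of the 760 features of the 5 small RNA classes with a mean of at least 10 RPM, with a variance trend and no term but cross, and Benjamini-Hochberg adjustment over all of them. Fold changes understate those of low features. RefSeq entries, whose scale may differ in 1 library, were not used here. The size of difference that the fit could call in these libraries was not tested. Summed values, shares and ratios were compared by exact permutation with Python 3.11.15 and numpy 2.4.6. All 9 members are named, with tRNA families of a list known from sperm, neighbours in the order of levels and the 5 nearest features by pattern. Alternatives covered the pseudocount, the minimum, 3 scalings, the trend, identical values counted once, a replicate block and each library left out. The rule for the members uses names only, but the members and lists were proposed with earlier results of these data known. Apart from the replicate block, p-values rest on the spread between 2 mice per cross, which takes in any difference between replicate numbers. In limma the estimate of that spread also draws on the other features tested.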

Additional observations from a re-analysis of the deposited data

How the results depend on the processing

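The difference in the summed initiator value depended on the scaling. On the log2 scale it was 0.0086 when scaled to the 5 classes, 0.25 when scaled to the tRNA class and 0.61 with median-ratio factors. The other settings with all libraries say little about it. The minimum and the replicate block leave the difference of the sum unchanged by construction, and the pseudocount hardly moves sums this large. With identical values counted once it was 0.14. The number of members past the threshold was 0 in all 14 alternatives. The number of features past the threshold was 0 in all alternatives except the replicate block, where it was 171 of 760. That block gave tRNA-iMet-CAT-1-1 a log2 fold change of 0.14 ± 0.23 (SE) with a limma adjusted p of 0.791, and the sum 0.14. Deviations from the cross means correlated at 0.87 between same-numbered libraries over 760 features, but with 2 pairs and no label that says what a number marks, the numbers are not known to pair the mice. With 1 library left out, the difference between replicates enters the value, and the direction turned whenever extra-cross replicate 2 or original-cross replicate 1 was absent. The sum then ranged from -0.64 to 0.93, the share of the tRNA class from -0.52 to 1.93 percentage points and the log2 initiator to elongator ratio from -0.87 to 0.28. The log2 fold change ranged from -0.64 to 0.93 for tRNA-iMet-CAT-1-1, from -0.32 to 0.65 for tRNA-iMet-CAT-2-1 and from -0.64 to 0.93 for tRNA-iMet-CAT-3-1. Without extra-cross replicate 2 the values were -0.57 for tRNA-iMet-CAT-1-1, -0.32 for tRNA-iMet-CAT-2-1 and -0.57 for tRNA-iMet-CAT-3-1, and without original-cross replicate 1 they were -0.64, -0.20 and -0.64. The ratio was -0.34 with the mean per distinct value in place of sums. In these fits the lone library of a cross is assumed to vary like the others.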
